A study of Sus scrofa with 10 samples.

Results

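The growth hormone and insulin-like growth factor (IGF) axis genes described here are GHR, IGF1, IGF2, IGFALS, IGFBP1, IGFBP2, IGFBP4, INSR, IRS2 and SOCS2, taken by symbol from a table of 31905 pig genes, with the most abundant row kept for each symbol. Rows under these symbols were present for 8 of the 10 genes, and all 8 passed the filter on low values, so that they were among the 12180 genes tested. IGF2 and SOCS2 had no row under those symbols and were not analysed here. The study measured RNA from pig liver (Sus scrofa, wild type) by RNA sequencing in 10 libraries, to ask which genes accompany liver failure after hepatectomy and which of them return toward normal when the animal is connected to a bioartificial liver, an external circuit in which blood meets liver cells. Its groups are hiHepD8 (2 libraries, labelled hiHep-BAL, day 8, treated with a device that held human induced hepatocytes), hiHepD4 (1 library, the same device on day 4), EmptyBAL (2 libraries, day 3, a device without cells), NoBAL (2 libraries, day 2, liver failure without a device) and Control (3 libraries, normal liver, day 0). Human induced hepatocytes are hepatocyte-like cells obtained by converting another human cell type. All groups except Control carry the hepatectomy, and each group was sampled on a day of its own, so treatment and day cannot be told apart. Whether libraries of a group stem from different animals is not stated in the labels, so the spread behind each p-value may be technical only.

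Growth hormone from the pituitary acts on the liver through its receptor, GHR, whose partner kinase JAK2 activates the transcription factor STAT5B. STAT5B in turn raises transcription of IGF1, of IGFALS (the acid-labile subunit, which holds IGF in a long-lived complex in blood) and of the feedback inhibitors CISH and SOCS2. The IGF binding proteins carry IGF and limit its access to receptors, and the liver is the main source of several of them. Insulin reaches the same cells through its receptor, INSR, and the adaptors IRS1 and IRS2. In mouse and human hepatocytes insulin keeps FOXO1 out of the nucleus and so holds down FOXO1 targets such as IGFBP1 and IRS2.

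Values are FPKM (fragments per kilobase of gene, normalised to the fragments of the library), as deposited by the authors. No counts could be recovered from them, so the depth behind each value is unknown and no counting interval is given. Pearson correlation of log2(FPKM + 1) was 0.992 between the hiHepD8 libraries, 0.893 between the EmptyBAL libraries, 0.956 between the NoBAL libraries and 0.992 to 0.994 among the Control libraries. The hepatocyte regulator HNF4A was at 3.15 FPKM in EmptyBAL replicate 1 and 46.6 FPKM in EmptyBAL replicate 2. It was at 84.6 to 121 FPKM in all other libraries. Some results that rest on EmptyBAL are therefore also given without EmptyBAL replicate 1. All 8 hepatocyte markers (ALB, TTR, APOA1, APOB, SERPINA1, TF, FGB and HNF4A) had values above 0 in every library. Their summed level was 23620 and 23690 FPKM in hiHepD8, 40520 in hiHepD4, 3816 and 7637 in EmptyBAL, 16760 and 24720 in NoBAL, and 87120 to 89860 in Control. In bulk liver RNA, fewer hepatocytes and less RNA per hepatocyte cannot be told apart. The labels call the material hepatocyte, but genes of blood and connective tissue cells were measured beside the hepatocyte genes.

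A gene was called changed at a Benjamini-Hochberg adjusted p under 0.05 in limma, fitted to log2(FPKM + 1) of all genes tested, and log2 changes are on that scale. Against Control, 1 of the 8 genes rose and 3 fell in hiHepD8, where 32.2% of all genes tested were called, 15.1% as higher and 17.1% as lower. In EmptyBAL 6 of the 8 fell and 0 rose, where 53.7% of all genes were called, 24.4% as higher and 29.3% as lower. In NoBAL 4 of the 8 fell and 0 rose, where 49.4% of all genes were called, 25.2% as higher and 24.2% as lower. The median log2 change of the 8 genes against Control was -0.73 in hiHepD8, -1.84 in EmptyBAL and -1.32 in NoBAL, against -0.02, -0.03 and 0.04 over all genes tested. Set against EmptyBAL, hiHepD8 had 5 of the 8 genes higher and 0 lower, where 40.2% of all genes were called, 22.6% as higher and 17.6% as lower. Set against NoBAL, hiHepD8 had 3 of the 8 higher and 0 lower, where 47.3% of all genes were called, 22.5% as higher and 24.8% as lower. EmptyBAL set against NoBAL had 1 lower and 0 higher, where 34.0% of all genes were called, 12.6% as higher and 21.4% as lower. These comparisons share libraries and are given side by side. The 8 genes and the other gene lists were chosen with earlier results of these data known. Their counts and medians beside those of all genes are therefore no independent support for a shift.

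The library values of the compared groups did not overlap for 8 of the 8 genes in hiHepD8 against Control, where this held for 80.0% of all genes tested. They did not overlap for 7 of the 8 in EmptyBAL against Control (72.7% of all genes) and for 7 of the 8 in NoBAL against Control (74.1%). The count was 6 of 8 in hiHepD8 against EmptyBAL (71.5%), 6 of 8 in hiHepD8 against NoBAL (79.5%) and 3 of 8 in EmptyBAL against NoBAL (59.0%). Most of the genes tested were separated in this way in each comparison.

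If the Control libraries are repeats of 1 animal, and likewise the hiHepD8 libraries, each group counts once, and 3 of the 23 calls among the 8 genes then remained. These were IGFALS in EmptyBAL and in NoBAL (adjusted p = 0.025 and 0.024) and GHR in EmptyBAL (adjusted p = 0.025), each against Control. All calls of hiHepD8 were lost on that reading, among them IGFALS (adjusted p = 0.068) and IGFBP2 (adjusted p = 0.33) against Control.

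**Figure D1:**
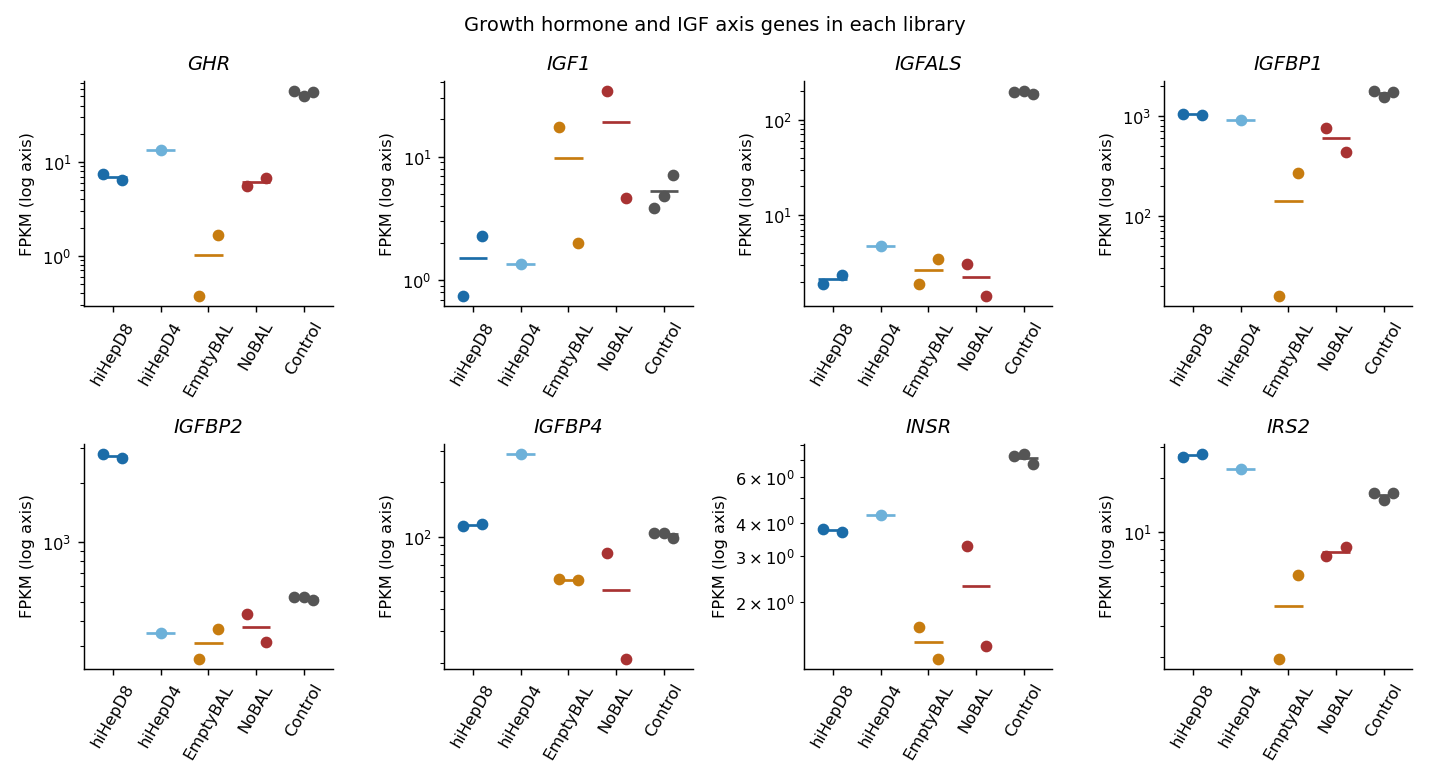
FPKM (log axis, scaled for each gene) of the 8 genes in each library, with a point per library and a bar at the group mean. GHR and IGFALS lie below Control in every other library, IGFBP2 is highest in hiHepD8, and IGF1 is spread widely within NoBAL and EmptyBAL.

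The receptor gene GHR and the STAT5B target IGFALS were far below normal liver in every library after hepatectomy. GHR (ENSSSCG00000016866, chromosome 16 at 27126300 to 27422618 in Sscrofa11.1, the build of all coordinates here) was at 7.37 and 6.51 FPKM in hiHepD8, 13.6 in hiHepD4, 0.373 and 1.68 in EmptyBAL, and 5.54 and 6.74 in NoBAL, against 56.8, 50.9 and 56.1 FPKM in Control. No library of the other groups came near the Control range, and the EmptyBAL pair was the lowest. GHR fell in hiHepD8 (log2 change -2.81 ± 0.27, limma SE, adjusted p = 0.00026), in EmptyBAL (-4.86 ± 0.27, adjusted p = 1.3e-05) and in NoBAL (-2.96 ± 0.27, adjusted p = 0.00011). Mean GHR was thus 12.7% of Control in hiHepD8, 1.88% in EmptyBAL and 11.2% in NoBAL, and the single hiHepD4 library was at 24.8%.

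GHR did not differ detectably between hiHepD8 and NoBAL, with a log2 change of 0.16 (95% interval -0.52 to 0.84, adjusted p = 0.69 in limma). In EmptyBAL, however, it was lower than in NoBAL (log2 change -1.89 ± 0.29, adjusted p = 0.005), and hiHepD8 lay above EmptyBAL (2.05 ± 0.29, adjusted p = 0.0015). The change between EmptyBAL and NoBAL ran from -2.76 to -0.89 over 19 alternatives, and its call was lost in 4 of them. These were only those groups fitted, array weights, Control and hiHepD8 each counted once, and the replicate block. By group mean, the order of the levels was Control, hiHepD4, hiHepD8, NoBAL and EmptyBAL, of which the neighbours hiHepD8 and NoBAL overlapped in their libraries. The hepatocyte markers were also lowest in EmptyBAL, with a median log2 difference from the Control mean of -4.92 and -3.51 in its libraries, against -1.93 and -2.16 in the NoBAL libraries. Their part in the GHR difference was not tested.

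IGFALS (ENSSSCG00000008013, chromosome 3 at 40173595 to 40177789) had the deepest loss of the 8 genes by group mean. It was at 1.90 and 2.34 FPKM in hiHepD8, 4.79 in hiHepD4, 1.89 and 3.44 in EmptyBAL, and 3.09 and 1.42 in NoBAL, against 193, 198 and 187.3 FPKM in Control. All libraries after hepatectomy fell within a narrow band of low values, with means of 1.10% of Control in hiHepD8, 1.38% in EmptyBAL and 1.17% in NoBAL. The fall was -5.96 ± 0.26 in hiHepD8 (adjusted p = 1.2e-05), -5.76 ± 0.26 in EmptyBAL (adjusted p = 6.1e-06) and -5.94 ± 0.26 in NoBAL (adjusted p = 5.5e-06) by limma. Ranked by log2 change, it was the 15th, 18th and 10th deepest fall of the 12180 genes in those comparisons. In EmptyBAL replicate 1 alone, GHR and IGFBP1 stood at 0.683% and 0.943% of the Control mean, below the 0.981% of IGFALS.

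Between the groups after hepatectomy, IGFALS showed no detectable difference. Its log2 change was -0.02 in hiHepD8 against NoBAL (95% interval -0.69 to 0.65), -0.20 in hiHepD8 against EmptyBAL (-0.87 to 0.47) and 0.19 in EmptyBAL against NoBAL (-0.48 to 0.86). In EmptyBAL replicate 1, where the summed level and the median of the hepatocyte markers were lowest, IGFALS was at 1.89 FPKM. In hiHepD4 the median log2 difference of the hepatocyte markers from Control was -0.60, and that of IGFALS was -5.06. The part of hepatocyte content in the IGFALS values was not tested.

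CISH, a feedback inhibitor that growth hormone induces through STAT5, was also far below Control in every library after hepatectomy. It was at 13.3 and 15.7 FPKM in hiHepD8, 12.5 in hiHepD4, 10.5 and 9.12 in EmptyBAL, and 7.85 and 5.58 in NoBAL, against 121.5, 134.6 and 123.8 FPKM in Control. CISH fell in hiHepD8 (log2 change -3.05 ± 0.18, adjusted p = 3.82e-05), in EmptyBAL (-3.56 ± 0.18, adjusted p = 9.38e-06) and in NoBAL (-4.06 ± 0.18, adjusted p = 5.51e-06). CISH was higher in hiHepD8 than in NoBAL (1.01 ± 0.20, adjusted p = 0.00461 in limma), at 11.4% of the Control mean.

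JAK2, STAT5A and STAT5B, which lie between the receptor and its targets, had smaller differences. JAK2, the receptor's kinase, was at 2.30 and 2.23 FPKM in hiHepD8, 1.77 in hiHepD4, 1.99 and 1.27 in EmptyBAL, 2.23 and 2.10 in NoBAL, and 1.65, 1.84 and 1.96 in Control, and was called in none of the 6 comparisons (adjusted p = 0.147 to 0.838 in limma). STAT5A was called in none of them either (adjusted p = 0.109 to 0.683). STAT5B averaged 14.3 FPKM in hiHepD8, 11.0 in EmptyBAL, 12.9 in NoBAL and 16.7 in Control, and it was called only for a fall in EmptyBAL against Control (log2 change -0.57 ± 0.17, adjusted p = 0.0235). That call was lost without EmptyBAL replicate 2 (-0.37, adjusted p = 0.055) or any single Control library (adjusted p = 0.059 to 0.075), with array weights (adjusted p = 0.13) and with upper-quartile scaling (-0.35), and the change was 0.20 with libraries scaled to equal totals. SOCS3, an inhibitor of cytokine receptors that interleukin-6 induces, was at 10.5 and 10.3 FPKM in hiHepD8, 136 in hiHepD4, 64.9 and 25.4 in EmptyBAL, and 104 and 16.8 in NoBAL, against 236, 253 and 232 FPKM in Control. It fell in hiHepD8 (log2 change -4.40 ± 0.68, adjusted p = 0.00239), in EmptyBAL (-2.53 ± 0.68, adjusted p = 0.0158) and in NoBAL (-2.48 ± 0.68, adjusted p = 0.0187). The SOCS3 change in EmptyBAL was -1.87 without EmptyBAL replicate 2 (adjusted p = 0.089). In NoBAL it was -3.76 without NoBAL replicate 1 and -1.20 without NoBAL replicate 2 (adjusted p = 0.0015 and 0.078), and the call was also lost without Control replicate 2 (adjusted p = 0.053). Its hiHepD4 value lay between the hiHepD8 and the Control libraries.

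Of 9 tested genes of growth hormone signalling other than the 8 genes above, 0 rose and 4 fell in hiHepD8 against Control (15.1% and 17.1% of all genes), 0 rose and 5 fell in EmptyBAL (24.4% and 29.3%), and 1 rose and 3 fell in NoBAL (25.2% and 24.2%).

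**Figure D2:**
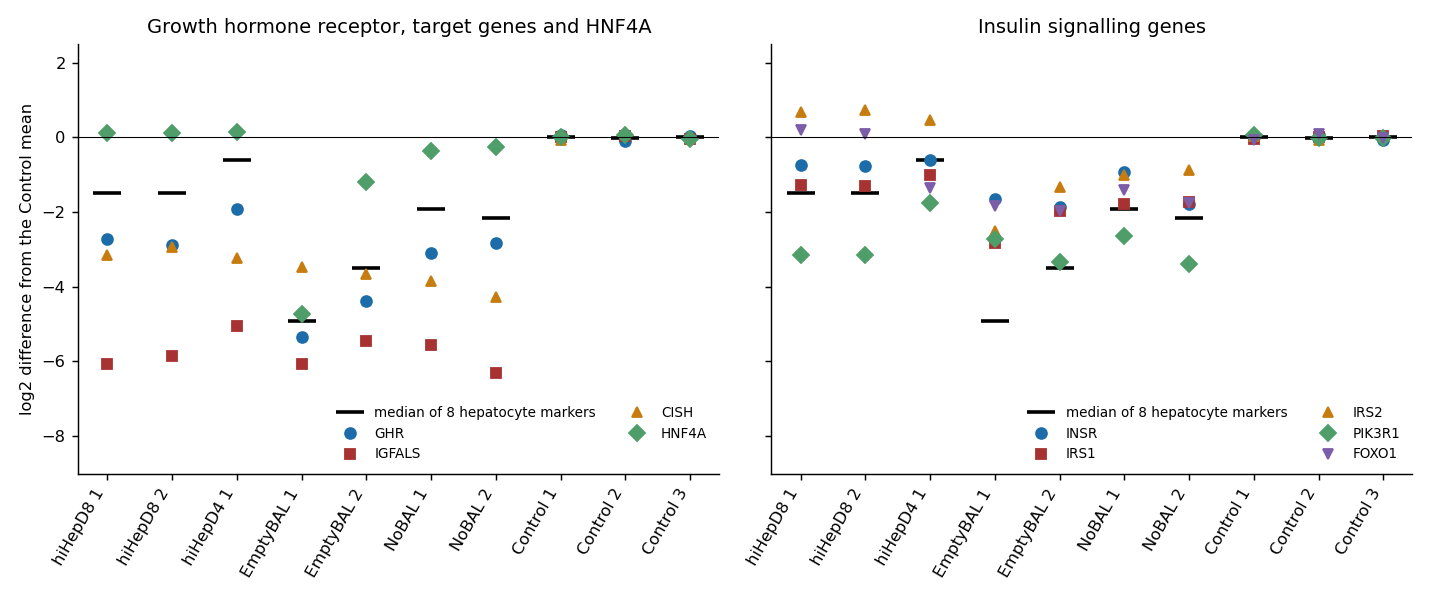
Log2 difference of log2(FPKM + 1) from the Control mean in each library, for the growth hormone receptor, its target genes and HNF4A (left) and for insulin signalling genes (right), with a black bar at the median of the 8 hepatocyte markers. IGFALS lies below the marker median in every library after hepatectomy, and IRS2 lies above it in all of them.

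The ligand gene IGF1 (ENSSSCG00000000857, chromosome 5 at 81762027 to 81909253) varied widely within NoBAL and within EmptyBAL. It was at 0.747 and 2.29 FPKM in hiHepD8, 1.35 in hiHepD4, 17.5 and 1.99 in EmptyBAL, and 33.8 and 4.65 in NoBAL, against 3.83, 4.85 and 7.11 FPKM in Control. Replicate 1 of NoBAL and of EmptyBAL stood above every Control library, and replicate 2 of each did not. None of the 6 comparisons called IGF1, and the log2 changes against Control were -1.35 ± 0.91 in hiHepD8, 0.28 ± 0.91 in EmptyBAL and 1.20 ± 0.91 in NoBAL (adjusted p = 0.30, 0.81 and 0.31 in limma). In the hiHepD8 and hiHepD4 libraries IGF1 lay below every Control library. The lowest adjusted p was that of hiHepD8 against NoBAL (log2 change -2.55 ± 1.0, adjusted p = 0.069), which passed without either EmptyBAL library (adjusted p = 0.03) and without NoBAL replicate 2 (-3.86, adjusted p = 0.025). The change in hiHepD8 against Control passed with only those groups fitted (adjusted p = 0.0095) and with array weights (adjusted p = 0.0051), and hiHepD8 against EmptyBAL without EmptyBAL replicate 2 (-2.95, adjusted p = 0.04).

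Of 5 neutrophil markers, 3 had a row (S100A8, S100A12 and CSF3R), and their summed level was 0.694 and 0.970 FPKM in hiHepD8, 65.4 in hiHepD4, 626 and 100.5 in EmptyBAL, 233.1 and 26.2 in NoBAL, and 0.327 to 1.19 in Control. S100A8 was listed at 0 in all Control libraries. Within NoBAL and within EmptyBAL the library with more IGF1, replicate 1, also had the higher sum. CSF3R went the other way, at 2.07 and 2.22 FPKM in NoBAL and 8.38 and 9.90 in EmptyBAL. The summed mesenchymal, bile duct and red cell markers were likewise higher in replicate 1 of both groups, and those of the remaining marker lists were not. The hiHepD4 library had a raised neutrophil sum and 1.35 FPKM of IGF1. The part of these cells in the IGF1 values was not tested. IGF1R, the receptor for IGF1, was low throughout, at 1.19 and 0.836 FPKM in hiHepD8, 0.358 in hiHepD4, 2.84 and 1.13 in EmptyBAL, 0.418 and 0.472 in NoBAL, and 0.806 to 1.03 in Control. It was called only in EmptyBAL against NoBAL (log2 change 0.98 ± 0.26, adjusted p = 0.0241 in limma). The IGF1R change was 0.56 without EmptyBAL replicate 1 (adjusted p = 0.038), 1.80 with a pseudocount of 0.1 and 0.35 with one of 5. The call was lost without either NoBAL library (adjusted p = 0.074 and 0.073), with no filter (adjusted p = 0.051), with only those groups fitted (adjusted p = 0.19) and with array weights (adjusted p = 0.29). IGF2R, which takes up and degrades IGF2, was at 14.7 and 14.5 FPKM in hiHepD8, 13.1 in hiHepD4, 10.2 and 6.25 in EmptyBAL, and 7.26 and 8.47 in NoBAL, against 15.0 to 15.4 in Control. It fell in EmptyBAL (-0.85 ± 0.20, adjusted p = 0.00812) and NoBAL (-0.88 ± 0.20, adjusted p = 0.00778) against Control, and was higher in hiHepD8 than in NoBAL (0.82 ± 0.22, adjusted p = 0.0163). With equal totals the IGF2R falls were -0.10 and -0.56 and no longer passed (adjusted p = 0.75 and 0.12), and without EmptyBAL replicate 2 the fall there was -0.54. The hiHepD8 call was lost without NoBAL replicate 1 (adjusted p = 0.064) or either hiHepD8 library (adjusted p = 0.086 and 0.081).

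The binding protein genes went in different directions, so that their makeup differed between groups. IGFBP2 (ENSSSCG00000035392, chromosome 15 at 118822092 to 118850985), which encodes a binding protein of blood that rises in fasting, was at 2791 and 2665 FPKM in hiHepD8. It was at 346.5 FPKM in hiHepD4, 257.9 and 363.9 in EmptyBAL, and 435.1 and 311.9 in NoBAL, against 526.1, 526.7 and 513.5 in Control. The hiHepD8 libraries stood far above all others, and every other library after hepatectomy was below Control. The mean in hiHepD8 was 5.22 times that of Control (log2 change 2.38 ± 0.25, adjusted p = 0.00041), and the log2 change was 3.15 ± 0.27 against EmptyBAL (adjusted p = 0.00021) and 2.88 ± 0.27 against NoBAL (adjusted p = 0.00019, all limma). IGFBP2 fell in EmptyBAL against Control (-0.77 ± 0.25, adjusted p = 0.033), a call that was lost without EmptyBAL replicate 1 (-0.52, adjusted p = 0.086) and without any single Control or hiHepD8 library, and the change was 0.06 with equal totals. In NoBAL the change did not pass the test (-0.50 ± 0.25, adjusted p = 0.13), but did without EmptyBAL replicate 1 or 2 (adjusted p = 0.039 and 0.04) and without NoBAL replicate 1 (-0.74, adjusted p = 0.035).

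IGFBP5, the gene next to IGFBP2 on chromosome 15 with 10830 bases and 0 annotated genes between them, was also highest in hiHepD8, at a much lower level. It was at 34.5 and 34.3 FPKM in hiHepD8, 1.20 in hiHepD4, 4.98 and 4.87 in EmptyBAL, and 0.920 and 1.11 in NoBAL, against 1.35, 1.21 and 1.39 FPKM in Control. The hiHepD8 mean was 26.1 times that of Control (log2 change 3.93 ± 0.12, adjusted p = 2.93e-06), the 12th largest rise among the 12180 genes. IGFBP5 also rose in EmptyBAL against Control (1.35 ± 0.12, adjusted p = 0.000104), a change of 0.65 with a pseudocount of 5 and 2.15 with equal totals. It was higher in hiHepD8 than in EmptyBAL (2.58 ± 0.13, adjusted p = 3.5e-05) and than in NoBAL (4.14 ± 0.13, adjusted p = 6.18e-06). IGFBP7, a secreted protein related to the IGF binding proteins and made by vessel and mesenchymal cells, was at 930 and 951 FPKM in hiHepD8, 214 in hiHepD4, 310 and 250 in EmptyBAL, and 215 and 146 in NoBAL, against 272, 282 and 242 FPKM in Control. It rose in hiHepD8 against Control (1.82 ± 0.24, adjusted p = 0.00102), EmptyBAL (1.75 ± 0.26, adjusted p = 0.00173) and NoBAL (2.40 ± 0.26, adjusted p = 0.000321).

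IGFBP6, matched through its gene identifier, was at 12.2 and 10.9 FPKM in hiHepD8, 0.294 in hiHepD4, 6.88 and 7.56 in EmptyBAL, and 5.76 and 3.14 in NoBAL, against 4.35, 3.71 and 2.11 FPKM in Control. It rose in hiHepD8 against Control (1.55 ± 0.28, adjusted p = 0.00476 in limma), while the hiHepD4 library was the lowest of all. All 3 tested binding protein genes beyond the 8 genes above thus rose in hiHepD8 against Control, where 15.1% of all genes rose, 2 rose in EmptyBAL (24.4% of all genes) and 0 in NoBAL (25.2%). The rise of IGFBP6 in EmptyBAL, counted here, was lost without either EmptyBAL library (adjusted p = 0.058 and 0.074), without Control replicate 3 (adjusted p = 0.062) and with array weights (adjusted p = 0.41). IGFBP3 had no row under that symbol and was not analysed here. Mesenchymal markers had a median log2 difference from Control of 1.46 and 1.45 in hiHepD8, -0.44 in hiHepD4, 1.43 and 1.51 in EmptyBAL, and 1.14 and 0.35 in NoBAL, and all 8 of them had a row with values above 0 in every library. Their summed level was 608 and 613 FPKM in hiHepD8, 152 in hiHepD4, 809 and 564 in EmptyBAL, 907 and 625 in NoBAL, and 322 to 357 in Control. Of these 8 markers, 5 had a higher mean in hiHepD8 than in EmptyBAL, 5 a higher mean than in NoBAL, and 4 a higher mean than in both. DCN, a matrix proteoglycan of fibroblasts, was at 8.79 times the Control mean in hiHepD8, 4.02 times in EmptyBAL and 2.21 times in NoBAL, and ACTA2, smooth muscle actin, was at 0.766, 1.41 and 1.64 times in those groups. Of 7 endothelial markers 6 had a row, all above 0, and they summed to 126 and 127 FPKM in hiHepD8, 50.0 in hiHepD4, 190.1 and 83.9 in EmptyBAL, 77.3 and 112.5 in NoBAL, and 70.9 to 74.2 in Control. The part of these cells in the binding protein values was not tested.

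IGFBP1 (ENSSSCG00000016728, chromosome 18 at 50018487 to 50022799), the binding protein that insulin holds down, was the most abundant of the 8 genes in Control. It was at 1049 and 1025 FPKM in hiHepD8, 914.5 in hiHepD4, 15.8 and 266.6 in EmptyBAL, and 756.7 and 437.1 in NoBAL, against 1759, 1528 and 1742 FPKM in Control. All libraries after hepatectomy lay below Control, and EmptyBAL replicate 1 was lowest by a wide margin. Only the fall in EmptyBAL passed the test against Control (log2 change -4.64 ± 0.97, adjusted p = 0.005 in limma). Without EmptyBAL replicate 1 it was -2.64 (adjusted p = 0.00065). The changes in hiHepD8 (-0.69, 95% interval -2.93 to 1.55, adjusted p = 0.63) and NoBAL (-1.54, -3.78 to 0.70, adjusted p = 0.22) did not pass, with an SE of 0.97 shared by the groups that was 0.31 for EmptyBAL without its replicate 1. The NoBAL fall of -1.54 then passed (adjusted p = 0.0017), as it did without EmptyBAL replicate 2 (adjusted p = 0.0016), with only those groups fitted (adjusted p = 0.0067) and with array weights (adjusted p = 0.045). The hiHepD8 fall passed with only those groups fitted (adjusted p = 0.00014) and with array weights (adjusted p = 0.0055). IGFBP1 was higher in hiHepD8 than in EmptyBAL (3.95 ± 1.06, adjusted p = 0.021). That change was 1.96 without EmptyBAL replicate 1 and 5.95 without EmptyBAL replicate 2, and the call was lost without either hiHepD8 library (adjusted p = 0.089 and 0.091).

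IGFBP4 (ENSSSCG00000017472, chromosome 12 at 21966524 to 21980043) encodes a binding protein that restrains IGF action until a protease cuts it. It was at 115.1 and 117.4 FPKM in hiHepD8, 287.7 in hiHepD4, 58.1 and 57.9 in EmptyBAL, and 81.0 and 21.1 in NoBAL, against 105.6, 104.7 and 99.0 FPKM in Control. The hiHepD4 library was the highest of all, and the hiHepD8 pair lay just above Control. IGFBP4 was higher in hiHepD8 than in NoBAL (log2 change 1.46 ± 0.51, adjusted p = 0.046 in limma). Its size rested on the NoBAL library kept, at 2.41 without NoBAL replicate 1 and 0.52 without NoBAL replicate 2, and the call was lost without any single Control library (adjusted p = 0.074) or hiHepD8 library (adjusted p = 0.15). The changes against Control did not pass in hiHepD8 (0.17 ± 0.46, adjusted p = 0.81), in EmptyBAL (-0.82 ± 0.46, adjusted p = 0.17) or in NoBAL (-1.29 ± 0.46, adjusted p = 0.0503). Without NoBAL replicate 1 the falls passed in NoBAL (-2.23, adjusted p = 0.00016) and in EmptyBAL (adjusted p = 0.0014).

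HTRA1, a secreted protease that cleaves IGF binding proteins, was at 88.8 and 86.7 FPKM in hiHepD8, 11.4 in hiHepD4, 84.5 and 57.0 in EmptyBAL, and 26.7 and 9.86 in NoBAL, against 24.9, 21.5 and 25.0 in Control. It was higher in hiHepD8 (log2 change 2.35 ± 0.41, adjusted p = 0.00255) and in EmptyBAL (2.02 ± 0.41, adjusted p = 0.0107) than in NoBAL, and also rose in both against Control (1.84 ± 0.37, adjusted p = 0.00742, and 1.51 ± 0.37, adjusted p = 0.0105). The HTRA1 rise in EmptyBAL against Control was lost without EmptyBAL replicate 1 (1.23, adjusted p = 0.059), and that in hiHepD8 without either hiHepD8 library (adjusted p = 0.059 and 0.055). EmptyBAL against NoBAL was 1.34 without NoBAL replicate 2, and that call was lost with only those groups fitted (adjusted p = 0.17) and with array weights (adjusted p = 0.07).

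The 6 binding protein genes with a row summed to 4931 and 4803 FPKM in hiHepD8, 1764 in hiHepD4, 654 and 951 in EmptyBAL, and 1494 and 920.5 in NoBAL, against 2669, 2447 and 2600 in Control. IGFBP1 made up 21.3% of that sum in each hiHepD8 library, 51.8% in hiHepD4, 2.42% and 28.0% in EmptyBAL, and 50.6% and 47.5% in NoBAL, against 62.5% to 67.0% in Control. IGFBP2 made up 56.6% and 55.5% in hiHepD8, 19.6% in hiHepD4, 39.4% and 38.3% in EmptyBAL, and 29.1% and 33.9% in NoBAL, against 19.7% to 21.5% in Control. The leading gene was thus IGFBP2 in hiHepD8 and IGFBP1 in hiHepD4, NoBAL and Control. In EmptyBAL it was IGFBP7 in replicate 1 (47.4%) and IGFBP2 in replicate 2. The ratio of IGFBP2 to IGFBP1 was 2.66 and 2.60 in hiHepD8, 0.379 in hiHepD4, 16.3 and 1.36 in EmptyBAL, and 0.575 and 0.714 in NoBAL, against 0.295 to 0.345 in Control. The sum includes IGFBP7, a protein related to the IGF binding proteins, and lacks IGFBP3, which had no row under that symbol. These shares compare levels per kilobase of gene within a library, and no test was made on them.

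**Figure D3:**
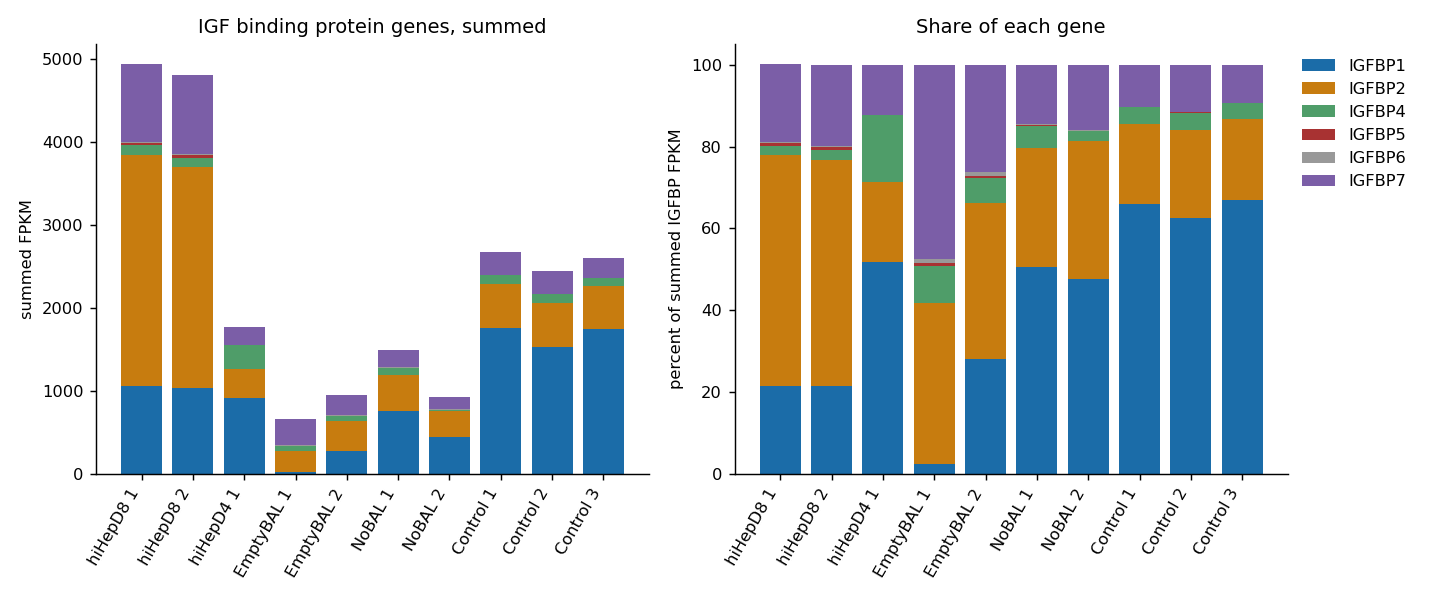
Summed FPKM of the 6 IGF binding protein genes with a row (left) and the percent of that sum from each gene (right), per library. The sum includes the related IGFBP7 and lacks IGFBP3, which had no row under that symbol. The hiHepD8 sums of 4931 and 4803 FPKM exceed all others, and IGFBP2 replaces IGFBP1 as the leading gene there.

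In the insulin branch, the receptor and the adaptors differed from each other. INSR (ENSSSCG00000013566, chromosome 2 at 71797209 to 71939923) was at 3.81 and 3.72 FPKM in hiHepD8, 4.29 in hiHepD4, 1.60 and 1.21 in EmptyBAL, and 3.26 and 1.36 in NoBAL, against 7.20, 7.36 and 6.74 FPKM in Control. All libraries after hepatectomy lay below the Control range, and EmptyBAL was lowest on average, at 19.8% of the Control mean. INSR fell in hiHepD8 (log2 change -0.77 ± 0.24, adjusted p = 0.042), in EmptyBAL (-1.76 ± 0.24, adjusted p = 0.00066) and in NoBAL (-1.35 ± 0.24, adjusted p = 0.0024 in limma). It was higher in hiHepD8 than in EmptyBAL (0.99 ± 0.26, adjusted p = 0.019), a call lost without EmptyBAL replicate 2 (0.88, adjusted p = 0.052) or either hiHepD8 library (adjusted p = 0.088 and 0.094). The hiHepD8 call against Control was lost without any single library of either group, at adjusted p = 0.094 to 0.19.

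IRS2 (ENSSSCG00000034763, chromosome 11 at 76626158 to 76654639) encodes the adaptor that carries the receptor's signal in the fasting mouse liver. It was at 26.4 and 27.3 FPKM in hiHepD8, 22.5 in hiHepD4, 1.97 and 5.74 in EmptyBAL, and 7.36 and 8.23 in NoBAL, against 16.5, 15.0 and 16.5 FPKM in Control. The libraries with the cell-filled device stood above every Control library, and those without cells stood below. IRS2 was higher in hiHepD8 than in EmptyBAL (log2 change 2.64 ± 0.34, adjusted p = 0.00095) and than in NoBAL (1.66 ± 0.34, adjusted p = 0.0052 in limma). Against Control it fell in EmptyBAL (-1.93 ± 0.31, adjusted p = 0.0014) and in NoBAL (-0.95 ± 0.31, adjusted p = 0.034). In EmptyBAL replicate 2 alone the IRS2 difference from the Control mean was -1.33. The NoBAL call was lost without any single Control, NoBAL or hiHepD8 library, at adjusted p = 0.058 to 0.13. The hiHepD8 mean was 1.68 times that of Control, which did not pass (0.71 ± 0.31, adjusted p = 0.12), but did without either EmptyBAL library (adjusted p = 0.0014).

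IRS1, the other main adaptor of the insulin receptor in liver, was at 7.42 and 7.26 FPKM in hiHepD8, 8.96 in hiHepD4, 1.83 and 4.14 in EmptyBAL, and 4.86 and 5.13 in NoBAL, against 18.6, 19.3 and 19.8 in Control. IRS1 fell in hiHepD8 (-1.28 ± 0.23, adjusted p = 0.0051), in EmptyBAL (-2.41 ± 0.23, adjusted p = 0.000142) and in NoBAL (-1.76 ± 0.23, adjusted p = 0.000691 in limma). The hiHepD8 call was lost with equal totals (-0.77, adjusted p = 0.1), and in EmptyBAL replicate 2 alone the difference from the Control mean was -1.98. The ratio of IRS2 to IRS1 was 3.55 and 3.76 in hiHepD8, 2.51 in hiHepD4, 1.07 and 1.39 in EmptyBAL, and 1.52 and 1.60 in NoBAL, against 0.778 to 0.888 in Control. No test was made on this ratio.

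PIK3R1, the regulatory subunit of phosphoinositide 3-kinase that binds the adaptors, was at 6.70 and 6.69 FPKM in hiHepD8, 19.3 in hiHepD4, 9.55 and 5.80 in EmptyBAL, and 10.1 and 5.53 in NoBAL, against 70.3, 67.3 and 66.3 in Control. It fell to a like extent in hiHepD8 (log2 change -3.16 ± 0.26, adjusted p = 0.000147), EmptyBAL (-3.03 ± 0.26, adjusted p = 8.88e-05) and NoBAL (-3.02 ± 0.26, adjusted p = 9.86e-05). FOXO1 and FOXO3, the transcription factors that insulin signalling restrains, stood near Control in hiHepD8. FOXO1 was at 24.3 and 22.5 FPKM in hiHepD8, 7.60 in hiHepD4, 5.16 and 4.68 in EmptyBAL, and 7.35 and 5.58 in NoBAL, against 20.2, 22.6 and 20.6 in Control. It was higher in hiHepD8 than in EmptyBAL (2.04 ± 0.17, adjusted p = 0.00019) and than in NoBAL (1.72 ± 0.17, adjusted p = 0.000248), and its change against Control did not pass (0.14 ± 0.16, adjusted p = 0.537). FOXO3, matched through its gene identifier, averaged 20.3 FPKM in hiHepD8, 7.45 in EmptyBAL and 3.98 in NoBAL, against 19.3 in Control, and was likewise higher in hiHepD8 than in NoBAL (2.10 ± 0.19, adjusted p = 0.000141). FOXO1 and IRS2 differed in hiHepD4, where FOXO1 lay below and IRS2 above every Control library.

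Among the inhibitors of the insulin receptor, GRB14, an adaptor that blocks its kinase, was at 12.3 and 11.6 FPKM in hiHepD8, 5.22 in hiHepD4, 3.05 and 5.65 in EmptyBAL, and 5.69 and 4.34 in NoBAL, against 25.2, 21.8 and 25.5 in Control. It fell in EmptyBAL (-2.27 ± 0.23, adjusted p = 0.000163) and NoBAL (-2.07 ± 0.23, adjusted p = 0.000278) and in hiHepD8 (-0.96 ± 0.23, adjusted p = 0.0155 in limma), where it was higher than in NoBAL (1.11 ± 0.25, adjusted p = 0.00832). The GRB14 fall in hiHepD8 was lost without Control replicate 1 or 3 (adjusted p = 0.056 and 0.057), without either hiHepD8 library (adjusted p = 0.088 and 0.11) and with equal totals (-0.42), and the call against NoBAL was lost without hiHepD8 replicate 1 (adjusted p = 0.057). PTPN1, a phosphatase that removes the receptor's activating phosphates, was lowest in hiHepD8, at 6.30 and 6.11 FPKM, against 28.5, 31.0 and 29.5 in Control (-2.09 ± 0.18, adjusted p = 0.00018). PTPN1 was also lower in hiHepD8 than in NoBAL (-1.54 ± 0.20, adjusted p = 0.000734). AKT2, the main AKT kinase of insulin action, was lower in EmptyBAL, at 22.9 and 19.9 FPKM, than in NoBAL, at 33.1 and 37.5 FPKM (-0.70 ± 0.17, adjusted p = 0.0184). The AKT2 call was lost with upper-quartile scaling (-0.43, adjusted p = 0.092), with equal totals (-0.25, adjusted p = 0.5), with only those groups fitted (adjusted p = 0.3) and with array weights (adjusted p = 0.2). LEPR, the leptin receptor, was at 5.88 and 6.52 FPKM in hiHepD8, 1.18 in hiHepD4, 0.0310 and 0.426 in EmptyBAL, and 0.605 and 1.01 in NoBAL, against 4.99 to 5.55 in Control. It was higher in hiHepD8 than in EmptyBAL (2.57 ± 0.19, adjusted p = 0.000126), and the fall in EmptyBAL against Control was -2.37 ± 0.18 (adjusted p = 4.45e-05). With pseudocounts of 0.1 and 5 that fall was -4.36 and -0.98.

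Of the 56 other axis genes listed, 51 had a row and 44 were tested. Against Control, 5 rose and 13 fell in hiHepD8 (15.1% and 17.1% of all genes), 6 rose and 21 fell in EmptyBAL (24.4% and 29.3%), and 5 rose and 17 fell in NoBAL (25.2% and 24.2%). In hiHepD8, 12 were higher and 3 lower than in EmptyBAL (22.6% and 17.6% of all genes), and 14 were higher and 3 lower than in NoBAL (22.5% and 24.8%). In EmptyBAL 5 were higher and 2 lower than in NoBAL (12.6% and 21.4%). Their median log2 change against Control was -0.09 in hiHepD8, -0.46 in EmptyBAL and -0.53 in NoBAL. Of 12 tested genes of insulin and IGF signalling, 1 rose and 2 fell in hiHepD8 against Control, 1 rose and 8 fell in EmptyBAL, and 2 rose and 6 fell in NoBAL, beside the same shares of all genes as for the whole list. Set against EmptyBAL, hiHepD8 had 7 of them higher and 1 lower. The count in hiHepD8 against Control was below the 32.2% of all genes called there.

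**Figure D4:**
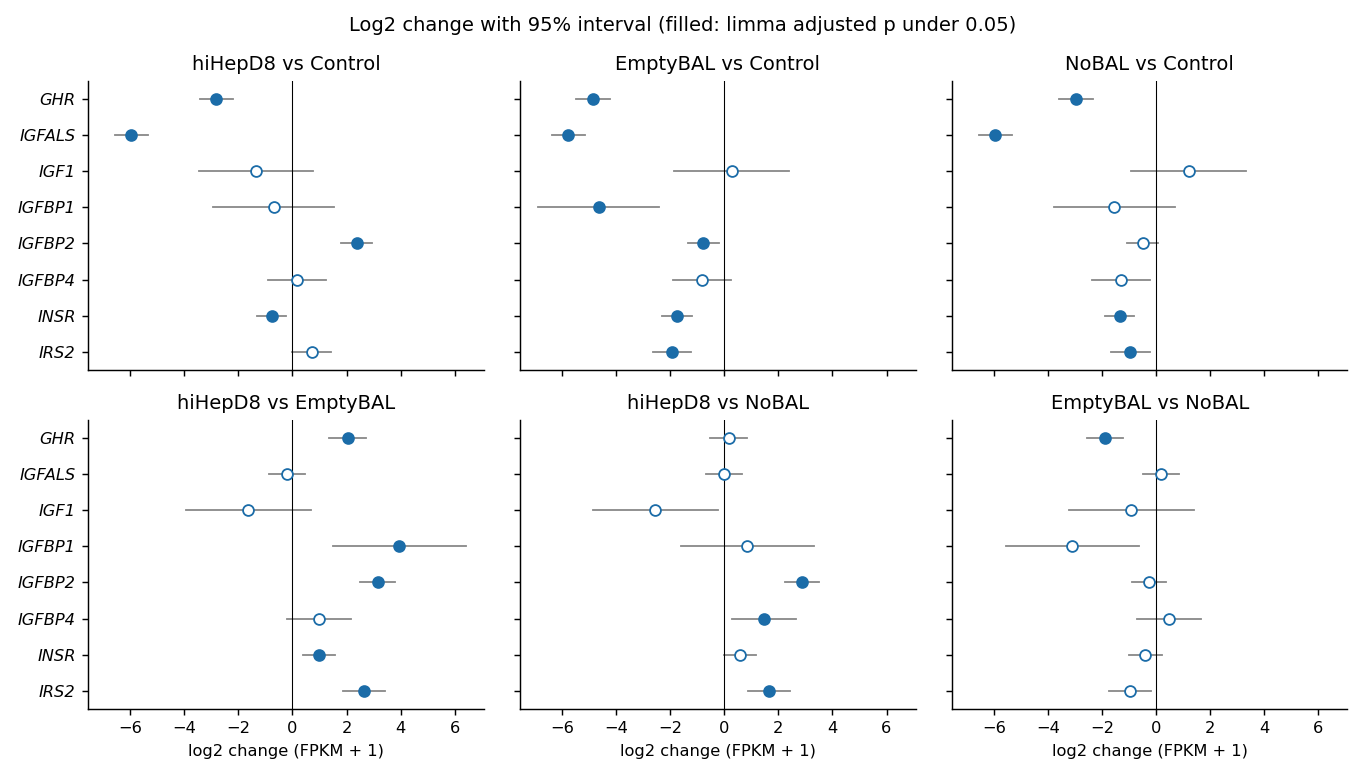
Log2 change of log2(FPKM + 1) of the 8 genes in the 6 comparisons, with 95% intervals from limma and filled points where the adjusted p was under 0.05. The first group named in each title is set against the second. IGFALS and GHR lie well below 0 against Control in all 3 comparisons, and IGFBP2 and IRS2 lie above 0 where hiHepD8 is set against EmptyBAL or NoBAL.

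The single hiHepD4 library has no replicate, and its differences were not tested. Set against the Control mean on the log2(FPKM + 1) scale, 1 of the 8 genes was at least 2-fold higher and 3 were at least 2-fold lower, where 8.19% of all genes were higher and 11.2% lower by that much. The higher gene was IGFBP4, at 2.79 times the Control mean in FPKM, and the lower ones were GHR, IGF1 and IGFALS, at 24.8%, 25.7% and 2.49% of it. Set against EmptyBAL 5 were at least 2-fold higher and 1 lower (16.5% and 13.4% of all genes), and set against NoBAL 3 were higher and 1 lower (7.60% and 7.56% of all genes). Set against hiHepD8, IGFBP4 was at least 2-fold higher and IGFBP2 at least 2-fold lower (12.3% and 11.1% of all genes). In FPKM, IGFBP2 was 7.87 times and IGFBP5 28.6 times lower in hiHepD4 than in the mean of hiHepD8.

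The genes whose group means ran most like each of the 8 were sought among 4226 genes that had a symbol and averaged 10 FPKM or more, by the root mean square difference of centred log2 group means over the 5 groups. For GHR they were SERPIND1 (0.19), VNN1 (0.28) and ADRA1A (0.30), and for IGFBP1 SLC2A2 (0.29), APOB (0.32) and QPRT (0.33). IGFALS had no gene closer than DGAT2 (0.50), SERPINA6 (0.55) and TTR (0.58). The gene nearest to INSR was F11R (0.07), then ASB13 and IRF2BP2 (0.09 each), and 616 genes lay within 0.50 of it, against 0 for IGFALS. IRS2 was nearest to A1CF (0.17), ADAMTSL4 (0.19) and LNX2 (0.21). For IGFBP2 the nearest were CDKN1B, SESN1 and P3H2 (0.34 each), all highest in hiHepD8. IGFBP4 ran closest to ITGB5 (0.24), BNIP3 (0.36) and PRXL2A (0.37), which were highest in hiHepD4, and for IGF1 ATPAF2 (0.26) and FABP3 (0.34) were among the nearest, both highest in NoBAL. These distances rest on group means of 1 to 3 libraries and carry no test. They are not scaled to the size of a gene's changes, so the numbers of near genes for INSR and IGFALS also reflect that size.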

How the data were processed

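Total RNA of pig liver was sequenced as paired-end libraries on an Illumina instrument, per the labels' protocols. The authors deposited FPKM for 31905 genes in 10 libraries. HISAT2, Cufflinks and HTSeq, with the pig build Sscrofa11.1 and the mouse build mm10, are named in the submitters' processing notes without roles, and mm10 played no part here. Whether libraries were stranded is not given in the sources used, which leaves overlapping and antisense genes uncertain. FPKM summed to 439925 to 829970 per library. The most frequent ratio of low values was shared by 21 of 950 genes for Control replicates 1 and 3 and by 24 of 1310 for the hiHepD8 pair, so whole fragments could not be recovered and depth is unknown.

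Genes of at least 1 FPKM in at least 2 libraries (12180) were fitted as log2(FPKM + 1), which understates changes of low genes, in 1 limma model (3.58.1, R 4.3.3) with 5 group means and a mean-variance trend. Residual degrees of freedom were 5, and limma added a prior of 2.7. Tests were two-sided, with Benjamini-Hochberg adjustment over all genes of a comparison. The script was tested on simulated data. hiHepD4 was not tested. The members and gene lists were chosen with earlier results of these data known. All members were named; of the other axis genes, IGF1R, IGF2R, IGFBP3, JAK2, STAT5A, STAT5B, CISH and IRS1 were always named, and up to 4 more called genes with the largest change in each comparison (IGFBP6, and further comparisons of genes so named, were added after their values were seen). Some genes are not reported here. Symbols came from the deposited table, or for 2 axis genes from a RefSeq-based table looked up by gene identifier, which also gave coordinates. Alternatives were 2 other pseudocounts (0.1 and 5), no filter, upper-quartile scaling, equal totals (chosen after the sums were seen), only the groups compared, array weights, no trend, Control and hiHepD8 each counted once, a replicate block and leaving out each replicate. Figures were drawn with matplotlib 3.10.9 in Python 3.11.15.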

Additional observations from a re-analysis of the deposited data

Results flagged for a closer look

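The hiHepD4 group is a single library that entered no test. IGFBP4 and IRS2 stood above every Control library in it, and the share of all genes that did so was not computed. IGFBP4 was at 287.7 FPKM in hiHepD4, against 99.0 to 105.6 FPKM in Control, and above all other libraries as well. IRS2 was at 22.5 FPKM in hiHepD4, against 15.0 to 16.5 FPKM in Control, and below the 26.4 and 27.3 FPKM of hiHepD8. Neither difference has a replicate.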

How the results depend on the processing

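Of 23 called changes of the 8 genes, 22 kept their direction under every alternative, 16 were called under every alternative except counting Control and hiHepD8 once each, and 3 were called under all of them. The exception in direction was IGFBP2 in EmptyBAL against Control, at 0.06 with equal totals. Of 106 called changes of the other axis genes, equal totals turned those of STAT5B (0.20), PIK3CB (0.02) and GAB1 (0.12) in EmptyBAL against Control. Among changes not called, IGFBP2 in EmptyBAL against NoBAL was 0.01 with upper-quartile scaling and 0.20 with equal totals, and IGFALS in hiHepD8 against NoBAL was 0 with a pseudocount of 0.1, 0.16 with upper-quartile scaling and 0.17 with equal totals. Leaving out single replicates, IGFALS ranged from -0.39 to 0.36 in hiHepD8 against NoBAL, from -0.51 to 0.11 in hiHepD8 against EmptyBAL and from -0.19 to 0.57 in EmptyBAL against NoBAL. Likewise IGF1 ranged from -1.03 to 1.60 in EmptyBAL and from -0.12 to 2.51 in NoBAL against Control and from -2.23 to 0.40 between EmptyBAL and NoBAL, where INSR ranged from -0.83 to 0.02 and IGFBP4 from -0.48 to 1.42.

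Counted once, the calls among the 8 genes, the 44 other axis genes and all genes were 0, 0 and 17 in hiHepD8, 2, 3 and 689 in EmptyBAL and 1, 1 and 413 in NoBAL against Control (4, 18 and 3923, 6, 27 and 6540, and 4, 22 and 6021 as reported). They were 0, 0 and 33 in hiHepD8 against EmptyBAL (5, 15 and 4895 as reported), 0, 1 and 297 in hiHepD8 against NoBAL (3, 17 and 5764) and 0, 0 and 0 in EmptyBAL against NoBAL (1, 7 and 4146). Fitting only the groups compared gave 8, 31 and 8384 calls in hiHepD8 against Control, 8 axis genes and 2353 genes in hiHepD8 against EmptyBAL, and 0, 0 and 0 in EmptyBAL against NoBAL, by limma, where 1, 3 and 2659 had an unadjusted p under 0.05 (1, 3 and 2653 when counted once). For the comparisons of hiHepD8, counts at that unadjusted p are not given when counted once, since hiHepD8 and Control then hold 1 value each. Array weights gave 7, 35 and 8876 in hiHepD8 and 3688 genes in EmptyBAL against Control, 2595 genes in hiHepD8 against EmptyBAL, and 0, 1 and 324 in EmptyBAL against NoBAL (3 of the 8 genes unadjusted). In that comparison the axis list had 11 calls with upper-quartile scaling and 12 with equal totals. The cause of these shifts was not tested.

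Leaving out single replicates gave 11 to 26 axis calls and 1723 to 5956 genes in hiHepD8 against Control, 3 to 6 of the 8 genes, 9 to 27 axis genes and 2423 to 6798 genes in hiHepD8 against EmptyBAL, 2 to 5, 11 to 24 and 3418 to 7568 in hiHepD8 against NoBAL, and 1 to 3, 6 to 23 and 2768 to 6679 in EmptyBAL against NoBAL. The lowest gene counts of hiHepD8 came without a hiHepD8 library, and 6679 came without EmptyBAL replicate 2. Where a group was left with 1 library, it was assumed to vary like the others.

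Replicate numbers are shared by Control, NoBAL and EmptyBAL, but same-numbered libraries deviated together only weakly over all genes tested (correlation -0.05 to 0.14). This correlation cannot show whether they share more than a number. With the replicate block, NoBAL against Control had 14 axis calls and 3010 genes, EmptyBAL against Control 3737 genes, and EmptyBAL against NoBAL 0, 1 and 407. The replicate block left out hiHepD8, whose sample titles number only 1 of its 2 libraries, although the deposited columns number both.

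Scaling to equal totals moved the median log2 change of all genes to 0.46 in hiHepD8, 0.65 in EmptyBAL and 0.33 in NoBAL against Control, -0.15 in hiHepD8 against EmptyBAL, 0.14 in hiHepD8 against NoBAL and 0.21 in EmptyBAL against NoBAL. In that order, rises made up 46.9%, 45.4%, 51.0%, 56.2%, 47.5% and 37.0% of calls as reported, 62.0%, 57.0%, 48.6%, 54.0%, 60.1% and 63.4% with upper-quartile scaling, and 78.9%, 77.4%, 66.6%, 38.6%, 58.7% and 84.6% with equal totals. Depth is unknown, so how it limits low values such as those of IGF1 and GHR in EmptyBAL cannot be given.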

Other observations

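Beside the growth hormone and insulin branches, the axis list held 4 tested genes of other hormone routes of the liver, named after their values were seen. FGF21 is a hepatic hormone of fasting, and KLB is its co-receptor. FGFR4 is the receptor through which the gut hormone FGF19 restrains bile acid synthesis, and THRB is the thyroid hormone receptor of the liver. FGF21, FGFR4 and THRB all fell in hiHepD8, EmptyBAL and NoBAL against Control. KLB was also called lower in all 3, but it reached 1 FPKM only in Control. It thus passed the filter only through the group where it is high, and its falls add no support. None of the 4 genes was called between hiHepD8, EmptyBAL and NoBAL (adjusted p = 0.0955 to 0.993 in limma). FGFR4 averaged 11.96 ± 0.046 FPKM in hiHepD8, 12.3 ± 0.66 in EmptyBAL and 12.7 ± 0.34 in NoBAL, against 34.4 ± 0.098 FPKM in Control, with SDs of 2 libraries each after hepatectomy and 3 in Control. It was at 6.46 FPKM in hiHepD4 and fell in all 3 tested groups (log2 change -1.45 ± 0.13, -1.41 ± 0.13 and -1.37 ± 0.13 in hiHepD8, EmptyBAL and NoBAL, adjusted p = 0.000205, 0.000113 and 0.000147). THRB was at 1.30 FPKM in each hiHepD8 library, 1.08 in hiHepD4, 0.563 and 1.29 in EmptyBAL, and 0.868 and 1.02 in NoBAL, against 3.82 to 5.02 FPKM in Control. FGF21 was at 8.23 FPKM in hiHepD4, above the 4.47 to 6.27 FPKM of Control, and at 1.10 to 2.28 FPKM in all other libraries after hepatectomy. Its call in hiHepD8 against Control was lost without hiHepD8 replicate 2. KLB was low, at 0.328 and 0.402 FPKM in hiHepD8, 0.562 in hiHepD4, 0.847 and 0.586 in EmptyBAL, and 0.460 and 0.272 in NoBAL, against 1.87 to 2.06 in Control. The KLB call in EmptyBAL against Control was lost with equal totals and with array weights.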
